A study of Mus musculus with 4 samples.

Results

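Testosterone replacement was compared with androgen suppression in Sertoli cell RNA from mice, measured on Agilent miRNA arrays. Male B6129 mice of 5 to 7 weeks received flutamide, which blocks the androgen receptor, from a Silastic tube together with intraperitoneal acyline, a gonadotropin-releasing hormone antagonist that lowers testosterone (Flut+Acy), or the same agents with a testosterone implant (Flut+Acy+T). Sham mice carried a Silastic tube and received saline injections. Each array held pooled Sertoli cell RNA, and the study's methods give pools of 5 to 7 mice for its RNA preparations in general. Flut+Acy was measured on 2 arrays, and Flut+Acy+T and Sham on 1 array each, so neither of these has a replicate, and whether the 2 Flut+Acy arrays hold separate pools is not stated. A miRNA entered the comparison when the scanner software called it detected on the Flut+Acy+T array or on both Flut+Acy arrays. This gave 282 of the 567 mouse miRNAs on the array, of which 83 were detected on all 3 arrays, 180 on the Flut+Acy pair and missed on Flut+Acy+T, and 19 on Flut+Acy+T but not on both Flut+Acy arrays.

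A miRNA pairs with target mRNAs mainly through its seed, bases 2 to 8 from the 5′ end, and lowers their translation or stability, so miRNAs that share a seed are grouped as a family. Sertoli cells line the seminiferous tubule, carry the androgen receptor and nurse the germ cells, and androgen is needed for meiosis and for the release of sperm. The mouse X chromosome carries a dense cluster of miRNAs that are known for expression in the testis.

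Signals are the total gene signal of the scanner software, summed over the probes of a miRNA, given in scanner units with the error that the software reports for that array. That error describes spots on 1 array and not the spread between mice. Normalized signals are total signals after quantile normalization over the 4 arrays, and differences are Flut+Acy+T minus the mean of both Flut+Acy arrays on the log2 scale. Among the 83 miRNAs detected on all 3 arrays, 11 were at least 2-fold lower (13.3%), 18 were at least 2-fold higher (21.7%) and 54 lay within 2-fold, with a median difference of 0.20. Over the 298 miRNAs detected on any array, 50.7% were at least 2-fold lower and 17.8% at least 2-fold higher, a background that includes miRNAs missed on Flut+Acy+T. The split depends on the scaling. It was 45 lower and 15 higher with 75th percentile scaling over all mouse miRNAs, 8 lower and 22 higher with no normalization, and 26 lower and 15 higher in the authors' deposited values.

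**Figure D1:**
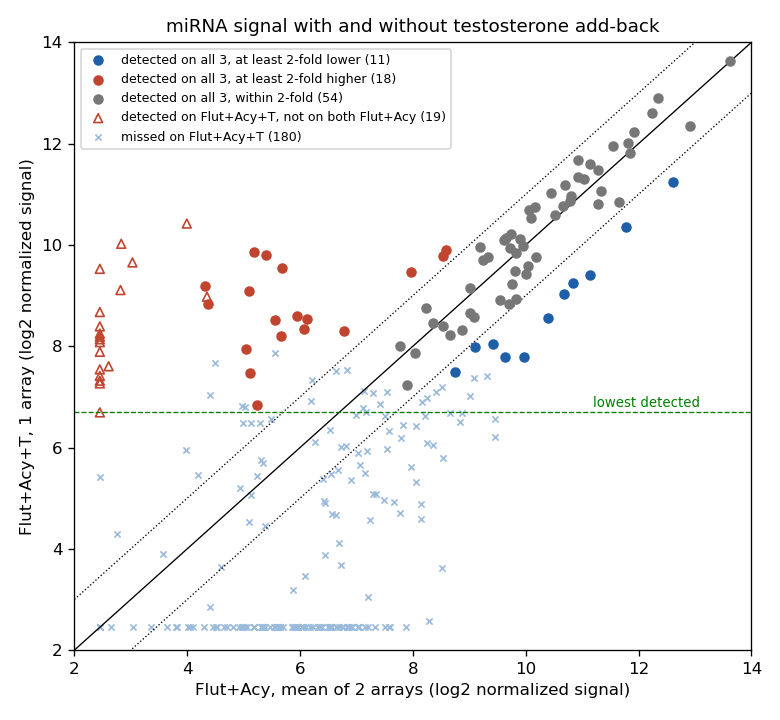
Log2 normalized signal on the Flut+Acy+T array (vertical) against the mean of both Flut+Acy arrays (horizontal) for the 282 miRNAs. The solid line marks equal signal, the dotted lines 2-fold, and the dashed line the lowest signal called detected on Flut+Acy+T (103.5 normalized units); values below 5.46 units are drawn at that floor. The 11 lower miRNAs are bright on Flut+Acy, the 18 higher ones mostly dim.

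The Flut+Acy+T array was noisier than the other arrays. The weakest miRNA called detected had a total signal of 238 units there, against 0.766 and 1.11 units on the Flut+Acy arrays, and 102 miRNAs were detected, against 275 and 270. Just inside this limit lay let-7g* at 238 ± 89.1 units, and miR-340-3p at 444 ± 105 units was not called detected. The 6 negative-control probes with a sequence, which should bind no mouse miRNA, had median spot signals of 41.7 to 2992 units on Flut+Acy+T, of 1.61 to 7.45 units on the Flut+Acy arrays and of 1.64 to 3.14 units on Sham. The software flagged 535 spots as nonuniform on Flut+Acy+T, against 2 and 4 on the Flut+Acy arrays. Total signals of the 83 miRNAs on Flut+Acy+T correlated at r = 0.667 and 0.688 with those on Flut+Acy, and the Flut+Acy pair correlated at r = 0.998, over log2 values of miRNAs that share the arrays.

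limma, which fitted the 3 groups together, called 160 of 298 miRNAs lower (53.7%) and 64 higher (21.5%) in Flut+Acy+T at an adjusted p below 0.05. Its spread came from the 1 residual degree of freedom of the Flut+Acy pair, so these calls leave out how Flut+Acy+T itself varies. For 55 of the 298 miRNAs, both Flut+Acy arrays held the same value after normalization and the floor. Those miRNAs showed no spread of their own. It called 10 of the 11 lower miRNAs (all but miR-34b-5p) and 18 of the 18 higher ones, but also 27 of the 54 within 2-fold and 149 of the 180 missed ones. Simulated data held 298 miRNAs, 60 of them truly changed, with lone arrays that varied by 1 log2 unit more than the pair. There the same fit made a mean of 160 false calls, counted over the unchanged miRNAs. The extra spread was a chosen value, as Flut+Acy+T has no replicate to measure it. The simulated count therefore does not say how many of the real calls are false. Because the fit holds no measure of how Flut+Acy+T varies, the sizes, the scanner errors and the state of the spots carry the description.

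The miRNAs that were lower in Flut+Acy+T came mainly from the X chromosome and from the miR-34, miR-17, miR-19 and miR-15 families. Their mature sequences, where assigned, and those of missed relatives and of miR-16, which stayed within 2-fold, are shown because seed and position group them. Sequences and positions are those of RefSeq on GRCm38.p6, capitals mark the seed, and the array name is followed by its locus. RefSeq entries were assigned to 401 of the 567 array names, and to 184 of the 282 miRNAs compared. Of the 401, 139 were matched by an identical name and 262 by the spacing to neighbouring miRNAs. Spacing can assign the wrong arm, as miR-532-5p received the entry of miR-532-3p.
miR-741, minus strand of chrX:66796809-66796831: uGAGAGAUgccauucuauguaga
miR-465c-3p, minus strand of chrX:66825965-66825986: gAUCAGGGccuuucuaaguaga
miR-880, minus strand of chrX:66800540-66800561: uACUCCAUccucucugaguaga
miR-743a, minus strand of chrX:66776760-66776781: gAAAGACAccaagcugaguaga
miR-743b-3p, minus strand of chrX:66777266-66777287: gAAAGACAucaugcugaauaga
miR-470, minus strand of chrX:66813995-66814017: uUCUUGGAcuggcacuggugagu
miR-201, minus strand of chrX:67988135-67988156: uACUCAGUaaggcauuguucuu
miR-34b-5p, minus strand of chr9:51103610-51103632: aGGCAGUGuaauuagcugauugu
miR-449a, plus strand of chr13:113037549-113037570: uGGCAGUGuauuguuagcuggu
miR-20a, plus strand of chr14:115044183-115044205: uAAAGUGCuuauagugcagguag
miR-106b, minus strand of chr5:138165787-138165807: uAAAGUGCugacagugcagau
miR-19b, plus strand of chr14:115044358-115044380: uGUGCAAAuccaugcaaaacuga
miR-19a, plus strand of chr14:115044048-115044070: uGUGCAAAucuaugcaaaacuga
miR-15b, plus strand of chr3:69009775-69009796: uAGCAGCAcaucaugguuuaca
miR-16, minus strand of chr14:61631936-61631957: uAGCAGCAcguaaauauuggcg

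The X chromosome miRNAs shown above do not share a seed, apart from miR-743a and miR-743b-3p. They lie close together. In the miR-463 to miR-883 cluster, the 3 miRNAs measured as at least 2-fold lower and the 7 missed ones that lay at least 2-fold above the normalized Flut+Acy+T limit span 49.2 kb, and miR-201 lies farther along the chromosome. Of the 401 matched miRNAs, 5 end in guaga (miR-465c-3p, miR-741, miR-743a, miR-878-3p and miR-880), and each of these 5 is in this cluster.

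miR-741, an X-linked miRNA expressed in the testis, had the largest fall among miRNAs detected on all 3 arrays. Its total signal was 1118 ± 93.5 and 1175 ± 96.3 units on the Flut+Acy arrays, 437 ± 129 units on Flut+Acy+T and 34.7 units on Sham. Flut+Acy+T lay below both Flut+Acy arrays by more than the scanner errors and above Sham. The normalized difference was -2.18, a 4.54-fold lower signal.

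miR-465c-3p, which belongs to a family of near-identical X-linked copies, read 1474 ± 124 and 1630 ± 134 units on Flut+Acy, 579 ± 134 units on Flut+Acy+T and 51.1 units on Sham, a difference of -1.84. miR-880 read 778 ± 57.4 and 860 ± 63.0 units on Flut+Acy, 477 ± 129 units on Flut+Acy+T and 27.0 units on Sham, a difference of -1.39. Both followed the order of miR-741. miR-201 lay near the edge, with 603 ± 43.2 and 645 ± 45.9 units on Flut+Acy, 461 ± 129 units on Flut+Acy+T and 27.7 units on Sham (-1.13). Its error range on Flut+Acy+T overlapped that of the first Flut+Acy array, and its difference was under 2-fold in 3 of 15 ways of processing.

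The miR-34 and miR-449 family, which shares the seed GGCAGUG in the sequences shown and is abundant in meiotic and later germ cells, was at least 2-fold lower in each of its 3 members detected on all 3 arrays. miR-34c, a germ cell marker, read 2339 ± 203 and 2421 ± 206 units on Flut+Acy, 933 ± 148 units on Flut+Acy+T and 141 units on Sham, a difference of -1.73. miR-34b-5p, made from a hairpin beside that of miR-34c, read 3940 ± 290 and 4234 ± 310 units on Flut+Acy, 1630 ± 172 units on Flut+Acy+T and 294 units on Sham (-1.42). miR-34a, made from a separate locus and a known target of p53, was the brightest of the 11 and read 6707 ± 534 and 7455 ± 587 units on Flut+Acy, 3246 ± 282 units on Flut+Acy+T and 319 units on Sham (-1.37). In all 3, Flut+Acy+T stood apart from both Flut+Acy arrays and above Sham. miR-449a read 801 ± 66.7 and 679 ± 54.7 units on Flut+Acy and was missed on Flut+Acy+T at 362 ± 126 units, where 3 of its 20 spots were flagged, and miR-449b and miR-449c were detected on none of the 3 arrays.

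The other falls, apart from miR-714, were in single members of families known to promote the cell cycle or restrain it, a role not tested here. miR-20a of the miR-17 to miR-92 cluster, whose members are known to favour proliferation, read 870 ± 65.2 and 1016 ± 75.4 units on Flut+Acy, 439 ± 128 units on Flut+Acy+T and 70.1 units on Sham (-1.83). miR-19b from the same cluster read 1728 ± 156 and 1720 ± 151 units on Flut+Acy, 778 ± 143 units on Flut+Acy+T and 147 units on Sham (-1.64). miR-92a, the remaining cluster member detected on all 3 arrays, read 845 and 942 units on Flut+Acy and 711 ± 138 units on Flut+Acy+T, a difference of -0.63 that stayed within 2-fold. The cluster miRNAs miR-19a, miR-18a, miR-17 and miR-17* were missed on Flut+Acy+T. miR-18a*, the other arm of the miR-18a hairpin, went the other way. It was detected on Flut+Acy+T and on neither Flut+Acy array, with a normalized difference of 5.80.

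The miR-15 family, known for targeting cyclins and BCL2, was graded. miR-15b read 1847 ± 141 and 1975 ± 150 units on Flut+Acy, 894 ± 142 units on Flut+Acy+T and 179 units on Sham (-1.59). The relatives assigned a sequence with the same seed differed by less, miR-16 by -0.90, miR-15a by -0.45 and miR-322 by -0.32. miR-497 (0.09) and miR-195 (0.28), which the family list also holds, lay above 0. No sequence was assigned to either, so their seeds were not compared and they are not set apart by seed. The list therefore had 1 of 6 members at least 2-fold lower and a median of -0.39, beside a median of 0.20 over all 83. miR-714, which is not mapped in the array file, read 443 ± 32.2 and 515 ± 38.2 units on Flut+Acy and 364 ± 93.7 units on Flut+Acy+T (-1.26), with an error range that overlapped that of the first Flut+Acy array.

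All 11 lower miRNAs had a lower total signal on Flut+Acy+T than on either Flut+Acy array before any normalization, 8 of them by at least 2-fold. Their normalized signals on Flut+Acy+T lay between Sham and Flut+Acy in 8 of 11, the exceptions being miR-20a, miR-19b and miR-714. Their total signals did so in 11 of 11, but the Sham array was dimmer, with total signals below both Flut+Acy arrays for 273 of the 282 miRNAs. They kept a negative difference in each of 15 ways of processing, and 8 were at least 2-fold lower in every one, the exceptions being miR-201, miR-714 and miR-880. Of the 11, 9 are on the study's list of 28 miRNAs altered by androgen, which the study chose on these arrays, so the overlap is no independent evidence of direction. The list's other 19 miRNAs were missed on Flut+Acy+T.

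**Figure D2:**
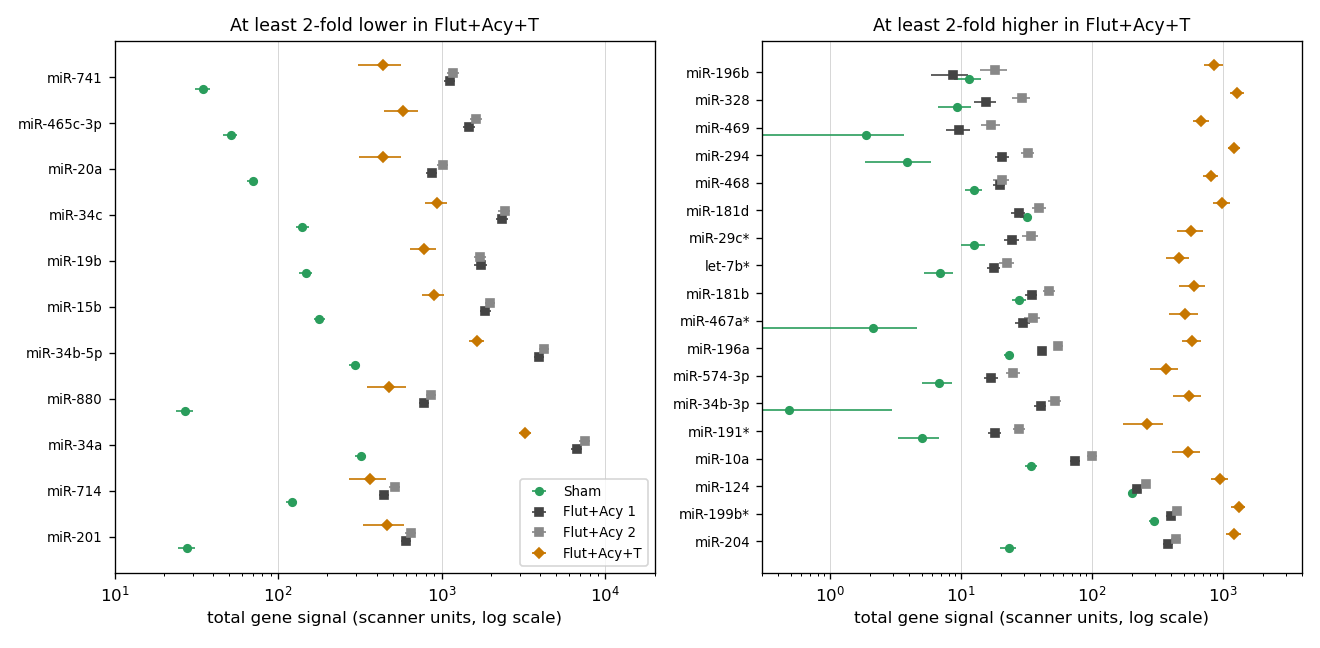
Total gene signal (scanner units, log scale) on each of the 4 arrays for the 11 miRNAs at least 2-fold lower (left) and the 18 at least 2-fold higher (right) in Flut+Acy+T, ordered by difference. Points are arrays and bars the error of the scanner software. On the left, Flut+Acy+T lies below both Flut+Acy arrays in all 11, and the dimmer Sham array lies lowest; on the right, it lies at 260 to 1312 units, above both Flut+Acy arrays in all 18.

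The spots behind the lower signals were mostly even. On Flut+Acy+T, 2 of the 220 spots of the 11 lower miRNAs were flagged as nonuniform (0.909%), both of miR-201. The spread between repeated spots of each brightest probe had a median coefficient of variation of 10.8%. The brightest probe was the same one as on Flut+Acy for 11 of 11. The 54 miRNAs within 2-fold were alike, with 0.926% of spots flagged, a median coefficient of variation of 7.37% and the same brightest probe for 53 of 54. The median spot of each of the 11 was nevertheless below the brightest negative-control probe on that array, as it was for 46 of the 54. Against the middle of the 6 control probes, at 1178 units, 9 of the 11 and 27 of the 54 were below.

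Most of the 18 higher miRNAs were dim on Flut+Acy and uneven on Flut+Acy+T, but miR-124 and miR-199b* had no flagged spot and miR-204 read 382 and 437 units on Flut+Acy. Their largest members were miR-196b, miR-328, miR-469, miR-294 and miR-468, and 5 of the 18 were star strands, the usually scarcer arm of a hairpin, as were 36 of the 282 miRNAs compared (12.8%). The sequences of members with relatives or with a partner arm are shown with the seed in capitals.
miR-196b, minus strand of chr6:52230129-52230150: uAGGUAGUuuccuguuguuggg
miR-196a, plus strand of chr11:96265187-96265208: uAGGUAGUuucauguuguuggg
miR-181d, minus strand of chr8:84178759-84178781: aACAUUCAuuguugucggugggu
miR-294, plus strand of chr7:3220691-3220712: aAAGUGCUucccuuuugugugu
miR-34b-3p, minus strand of chr9:51103574-51103595: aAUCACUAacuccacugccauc
miR-29c*, plus strand of chr1:195037562-195037583: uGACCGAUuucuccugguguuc

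miR-196b, a miRNA of a Hox gene cluster, had the largest difference. It read 8.61 ± 2.73 and 18.1 ± 4.10 units on Flut+Acy, 855 ± 140 units on Flut+Acy+T and 11.5 units on Sham, a difference of 4.88. miR-196a, which shares its seed, read 41.3 ± 2.98 and 55.2 ± 4.05 units on Flut+Acy, 577 ± 94.0 units on Flut+Acy+T and 23.2 units on Sham (2.42). Of their spots on Flut+Acy+T, 6 and 5 of 20 were flagged as nonuniform.

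miR-10a and miR-10b, which also lie in Hox clusters, differed by 1.52 and 0.62, and the miR-10a difference was -0.99 in the authors' deposited values. miR-328 read 15.4 ± 2.96 and 28.9 ± 4.55 units on Flut+Acy, 1286 ± 161 units on Flut+Acy+T and 9.24 units on Sham (4.68). miR-294, a miRNA of pluripotent cells, read 20.6 ± 2.55 and 32.4 ± 3.71 units on Flut+Acy, 1218 ± 127 units on Flut+Acy+T and 3.87 units on Sham (4.42). The other 5 markers of pluripotent cells were detected on both Flut+Acy arrays and missed on Flut+Acy+T. miR-291a-3p read 426 ± 107 units there against 11.7 and 16.7 units on Flut+Acy, and miR-290-3p 211 ± 89.2 units against 20.9 and 26.5 units. At these levels without a call, the normalized difference was 3.19 for miR-291a-3p and 1.19 for miR-290-3p. It was negative for the rest, at -0.78 for miR-290-5p, -0.94 for miR-292-3p and -0.95 for miR-295.

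In the miR-181 family, miR-181d read 27.4 ± 3.44 and 39.3 ± 4.85 units on Flut+Acy and 977 ± 144 units on Flut+Acy+T (3.88). miR-181b read 34.4 ± 3.70 and 47.0 ± 5.21 units on Flut+Acy and 594 ± 134 units on Flut+Acy+T (2.66). miR-181a and miR-181c were missed on Flut+Acy+T at 111 ± 124 and 30.3 ± 123 units, levels at which the array gave no call. miR-468 (3.98) and miR-469 (4.48) read 20.3 units or less on Flut+Acy and 807 ± 99.6 and 681 ± 96.1 units on Flut+Acy+T.

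The arms of miR-34b differed in opposite directions. miR-34b-5p was at -1.42, as above, while miR-34b-3p read 40.3 ± 4.06 and 51.8 ± 5.49 units on Flut+Acy, 548 ± 131 units on Flut+Acy+T and 0.48 units on Sham, a difference of 2.26. Of the 20 spots of miR-34b-3p, 1 was flagged, and none of miR-34b-5p. Some star strands, picked from the higher group, also had a larger difference than their partner arm. miR-29c* differed by 2.95 against 0.02 for miR-29c, let-7b* by 2.89 against 0.41 for let-7b, and miR-199b* by 1.32 against 0.17 for miR-199b. Of the 36 star strands compared, 19 were missed on Flut+Acy+T, and their differences, at levels without a call, went both ways. miR-34c* read -112 ± 123 units there, so its difference of -4.11 is only its distance to the floor. It has no bound above 1-fold and cannot be ranked against the measured -1.73 of miR-34c. let-7f* read 260 ± 89.3 units without a call, a difference of 1.84 against 0.20 for let-7f.

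miR-124, a neuronal miRNA, read 218 ± 15.8 and 258 ± 18.8 units on Flut+Acy, 949 ± 141 units on Flut+Acy+T and 202 units on Sham, a 2.82-fold higher signal. It was at least 2-fold higher in 13 of 15 ways of processing, with a lowest difference of 0.37. Its normalized signal was 703 units on both Sham and Flut+Acy+T. With miR-199b*, it was 1 of the 2 higher miRNAs with no flagged spot. Of the 18 higher miRNAs, 11 were at least 2-fold higher in every 1 of the 15 ways, and 16 kept a positive difference. miR-204 had the smallest difference of the 18, at 1.25 but -0.068 with 75th percentile scaling over all mouse miRNAs, and the nearest miRNA under the threshold was miR-199a-5p at 0.78.

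Among the 18, 16 had at least 1 nonuniform spot on Flut+Acy+T, and 16.1% of their spots were flagged. The coefficient of variation between repeated spots had a median of 41.7%, and the brightest probe was the same as on Flut+Acy for 10 of 18, although it was the same within the Flut+Acy pair for 18 of 18. The median spot of all 18 was below the middle negative-control probe, as it was for 252 of the 282 miRNAs compared. The part of the raised control signal in these differences was not tested. Without the miRNAs that had a flagged spot, a rule added after the data were seen, 2 higher and 10 lower miRNAs were left. A list of 8 miRNAs taken as reduced by androgen suppression held 6 of the 18 (miR-328, miR-29c*, miR-468, miR-196b, miR-181d and miR-181b). Each of these 6 had 2 or more flagged spots. The other 2 of the list, miR-135b and miR-341, were missed. The study's text and supplementary tables print no such list. The supplement does name miR-328, miR-468 and miR-181b as androgen-responsive miRNAs with predicted targets, and gives PCR primers for miR-328 and miR-468. The list of 8 was chosen with results of these arrays known and so is no independent evidence.

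**Figure D3:**
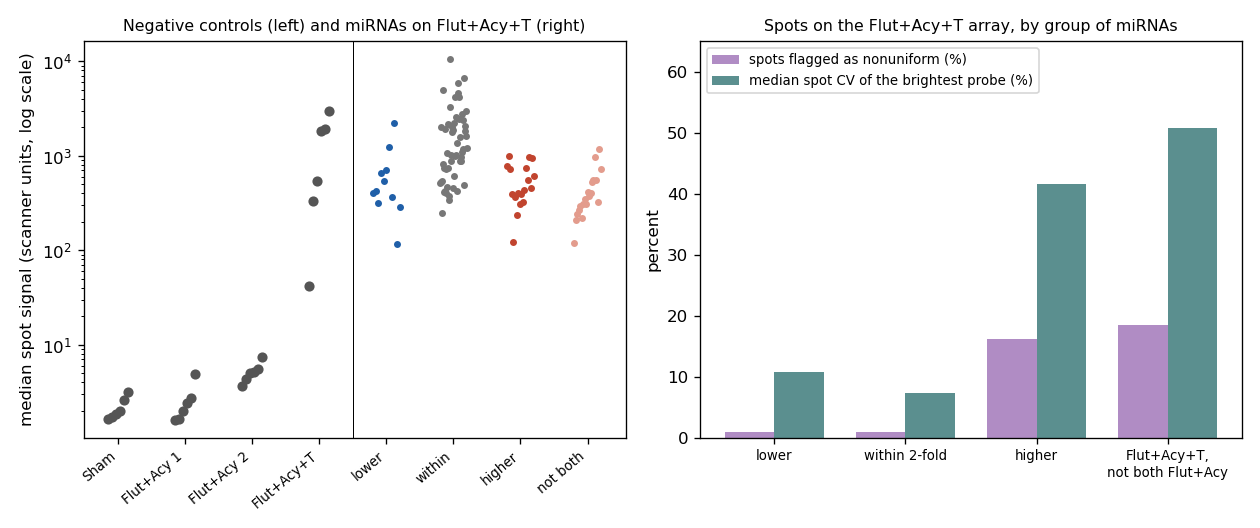
Left, median spot signal (scanner units, log scale) of the 6 negative-control probes on each array and of single miRNAs on Flut+Acy+T by group. Right, percent of spots flagged as nonuniform and median coefficient of variation (CV) between spots of the brightest probe on Flut+Acy+T. The control probes reach 2992 units on Flut+Acy+T and at most 7.45 units on the other arrays; 16.1% of spots of higher miRNAs were flagged, against 0.909% of those of lower ones.

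The 19 miRNAs detected on Flut+Acy+T but not on both Flut+Acy arrays resembled these. On neither Flut+Acy array were 15 of them detected, and 12 of the 19 were star strands (63.2%, against 12.8% of all 282). miR-335-3p had the largest ratio. It read 4.39 ± 1.88 and 9.26 ± 2.78 units on Flut+Acy and 1418 ± 117 units on Flut+Acy+T, 146-fold higher on the normalized scale. There, each Flut+Acy array counted at its own signal or at the floor of 5.46 units if that was higher. The ratio was 135-fold for miR-99b*, 78.4-fold for miR-154, 61.5-fold for let-7c-2* and 55.7-fold for miR-18a*. These ratios move with the floor, allow for no scanner error and are not lower bounds. All 19 entered the comparison only through their detection on Flut+Acy+T. miR-211 (1738 ± 129 units), let-7d* (1063 ± 106 units), miR-615-3p and miR-197 were detected on 1 Flut+Acy array as well. Of the 19, 17 had a flagged spot, 18.4% of all their spots were flagged, and 18 had a median spot below the middle negative-control probe.

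The other families changed little in size. All 8 let-7 miRNAs detected on all 3 arrays, bright miRNAs of differentiated cells with the seed GAGGUAG, lay between -0.46 for let-7g and 0.56 for let-7c, with a median of 0.29. let-7c itself read 5232 ± 434 and 6276 ± 513 units on Flut+Acy and 8995 ± 744 units on Flut+Acy+T. All 5 of miR-23a, miR-23b, miR-24, miR-27a and miR-27b lay between 0.44 and 0.58. The 3 miR-29 miRNAs, known for targeting collagen mRNAs, lay between -0.43 and 0.02, and 4 of the 5 of the miR-30 family between -0.35 and 0.47. The fifth, miR-30d, was missed on Flut+Acy+T at 277 ± 125 units, against 283 ± 20.7 and 351 ± 25.5 units on Flut+Acy. The brightest miRNA, miR-1224, read 11828 ± 693 and 13876 ± 830 units on Flut+Acy and 14642 ± 846 units on Flut+Acy+T. It ranked at the top of every array, so its normalized difference is 0.00 by construction.

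**Figure D4:**
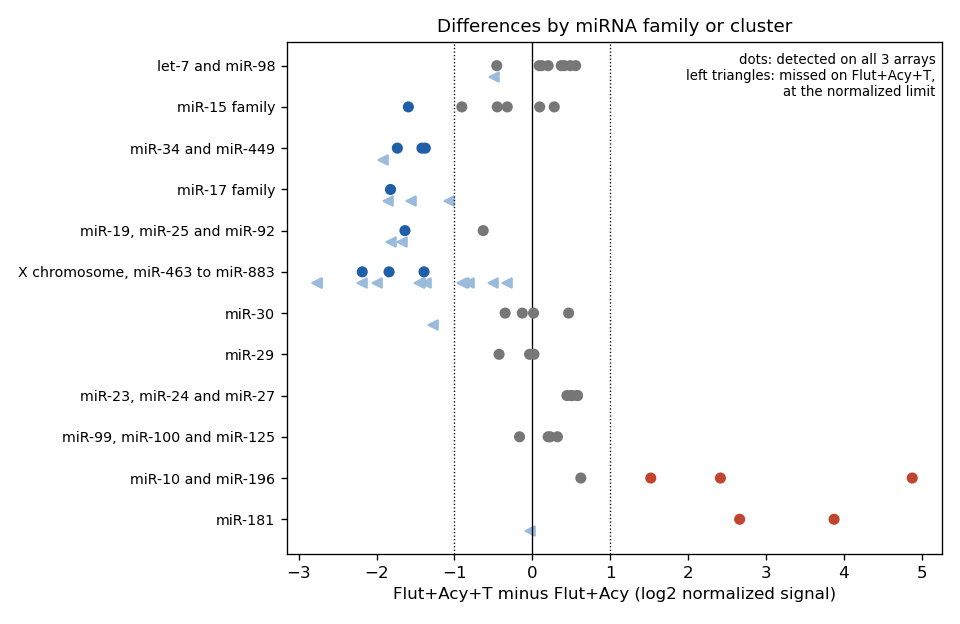
Flut+Acy+T minus Flut+Acy (log2 normalized signal) for the members of 12 families or clusters. Dots are miRNAs detected on all 3 arrays, blue at least 2-fold lower, red at least 2-fold higher and grey within 2-fold; left-pointing triangles are miRNAs missed on Flut+Acy+T, placed at their distance from the normalized limit where that is above 1-fold. The limit allows for no scanner error. The let-7 dots lie within 2-fold, the 3 miR-34 dots between -1.73 and -1.37, and the 3 X chromosome dots between -2.18 and -1.39.

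For the 180 miRNAs missed on Flut+Acy+T only a limit can be given. With each set at the higher of its own signal and the lowest normalized signal called detected there, 103.5 units, 27 of the 180 lay at least 2-fold above that limit on Flut+Acy and 153 did not. The normalized limit makes no allowance for the scanner error and does not bound the total signals. On total signals, with 238 units as the lowest detected, the count was 6, and 14 of the 27 were at least 2-fold lower in total signal as read. With the limit at 238 units or the miRNA's own signal plus its error, whichever was higher, the count was 2, miR-743a and miR-743b-3p, and 17 stayed above the limit by any amount. The error had a median of 123 units. The bounds given as at least N-fold are these last ones, an alternative added after the data were seen, and carry no replicate check. They allow for the reported scanner error on Flut+Acy+T and for none on Flut+Acy. A larger error would lower them, so at least N-fold holds only within that error.

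miR-743a and miR-743b-3p, X-linked and with the seed AAAGACA, had the largest bounds. miR-743b-3p read 808 ± 61.4 and 849 ± 63.9 units on Flut+Acy, 180 ± 124 units on Flut+Acy+T and 21.7 units on Sham, and was at least 2.73-fold lower. miR-743a read 784 ± 66.9 and 904 ± 75.9 units on Flut+Acy and 222 ± 125 units on Flut+Acy+T, at least 2.42-fold lower. In the same cluster, miR-883a-3p was at least 1.49-fold lower and miR-470 at least 1.46-fold lower, and miR-471, at 205 ± 124 units against 255 ± 18.6 and 285 ± 20.5 units, had no bound above 1-fold. Of the 25 miRNAs of this cluster on the array, 22 were compared. Of these, 3 were lower as measured, 19 were missed and 7 of the missed lay at least 2-fold above the normalized limit.

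In the family of miR-20a, miR-106b was at least 1.55-fold lower and miR-20b at least 1.07-fold lower, while miR-93 had no bound above 1-fold. In the miR-34 and miR-449 family, miR-449a was at least 1.51-fold lower. miR-17 and miR-106a read 25.1 units or less on Flut+Acy, which gives no bound. miR-19a, with the seed of miR-19b, read 376 ± 28.4 and 427 ± 31.9 units on Flut+Acy and 29.4 ± 123 units on Flut+Acy+T and was at least 1.68-fold lower. miR-25 was at least 1.15-fold lower. Other bounds were at least 1.71-fold for miR-705, at least 1.32-fold for miR-296-5p and at least 1.26-fold for miR-494. Of the 27 miRNAs past 2-fold against the normalized limit, 10 map only to X, as do 46 of the 282 compared, 4 of the 11 lower and 0 of the 18 higher.

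**Figure D5:**
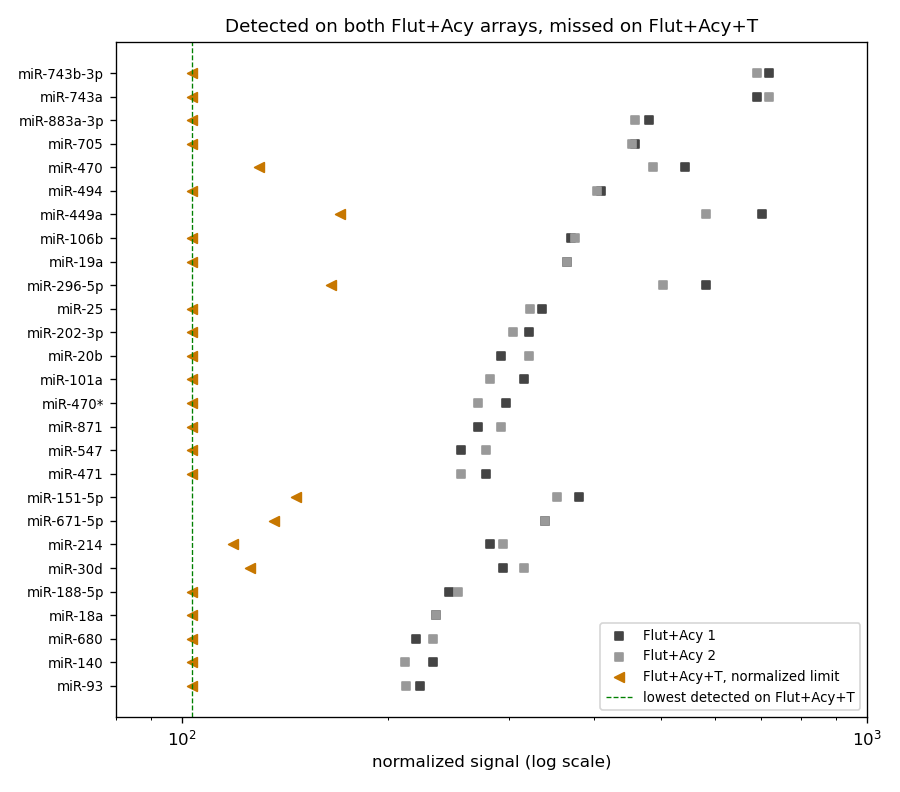
Normalized signal (log scale) on both Flut+Acy arrays (squares) for the 27 miRNAs missed on Flut+Acy+T that lay at least 2-fold above the normalized limit, and that limit (triangles), which makes no allowance for scanner error. The dashed line is the lowest normalized signal called detected on Flut+Acy+T, 103.5 units; triangles to its right are miRNAs whose own undetected signal was higher. miR-743b-3p and miR-743a lie farthest from the limit.

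Markers of cell types did not all follow the label. miR-202-3p, known from Sertoli cells and the gonadal soma, read 312 ± 22.5 and 339 ± 24.3 units on Flut+Acy and 103 units on Sham but 8.25 ± 123 units on Flut+Acy+T, where it was missed and at least 1.36-fold lower. miR-202-5p was missed too, so neither Sertoli marker was detected on the Flut+Acy+T array. It read only 21.5 ± 4.30 and 27.0 ± 6.11 units on Flut+Acy and was not detected on Sham. Those levels, and the Sham level of miR-202-3p, lie below the lowest signal detected on Flut+Acy+T (238 units). The miss of miR-202-5p therefore gives no bound. The 4 germ cell markers summed to 7081 and 7333 units on Flut+Acy, 2924 units on Flut+Acy+T and 475 units on Sham, with miR-449b at or below 0 on all arrays. The endothelial marker miR-126-3p read 1949 ± 146 and 2112 ± 154 units on Flut+Acy and 4013 ± 317 units on Flut+Acy+T (0.76), while miR-126-5p was missed. Muscle markers detected on all 3 arrays lay between -0.65 for miR-133b and 0.42 for miR-143. Of the blood markers, 4 of 6 were detected on both Flut+Acy arrays and none on Flut+Acy+T, and of the epithelial markers 3 of 5 and none. Their summed total signals on Flut+Acy+T were nevertheless the higher, at 911 against 382 and 432 units for blood and 437 against 274 and 310 units for epithelium. miR-122 of liver was detected on none of the 3 arrays. In such pools, fewer cells of a type and less miRNA per cell cannot be told apart, and the part of germ cell RNA in the lower signals of miR-34b-5p, miR-34c and miR-449a was not tested.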

How the data were processed

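Per the file headers, the authors scanned 4 one-colour arrays, all on the same slide, and extracted them with Feature Extraction 9.5.3.1. The deposited intensities are on a linear scale, background-subtracted and not normalized between arrays, with a total signal, its error and a detection flag per miRNA. The authors also deposited 1 quantile-normalized intensity per miRNA and array, used as an alternative only. Mouse total signals (567 miRNAs) were quantile-normalized over 4 arrays, given a floor of 5.46 units (median across arrays of each lowest detected normalized signal, at least 1 unit) then log2-transformed. All 3 groups entered 1 fit in limma 3.58.1 (R 4.3.3) over the 298 miRNAs detected on any array, with Benjamini-Hochberg adjustment. Tested on simulated data for this comparison (298 miRNAs, 60 changed by 2 log2 units), it recovered 74.25% with 3.5 false calls when all arrays varied alike. Named miRNAs were the largest differences and distances from the detection limit, the brightest miRNAs, the leading members of each family or marker list, and the study's list, and others were chosen after their values were seen. Members and lists were chosen with earlier results of these data known. The number of arrays limits the precision. Alternatives were 75th percentile scaling, no normalization, spot signals, normexp (offset 50), other detection rules, filters and floors, the methods' analysis of variance, the deposited values, and comparisons that dropped either Flut+Acy array. Control and viral probes were left out of the comparison. Real-time PCR and target experiments are not analysed here.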

Additional observations from a re-analysis of the deposited data

Results flagged for a closer look

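Probes outside the comparison gave signal on the Flut+Acy+T array above the level on Sham. The brightest negative-control probe had a median spot signal of 2992 units there and the controls reached at most 3.14 units on Sham. Among the 10 viral miRNAs on the array, the highest total signal was 774 ± 97.1 units on Flut+Acy+T, for miR-M1-9 of a mouse herpesvirus, which read 1.30 units on Sham and 2.02 and 9.17 units on the Flut+Acy arrays. That is within the range of the 18 higher mouse miRNAs on the same array (260 to 1312 units).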

How the results depend on the processing

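No paired analysis was possible because the groups share fewer than 2 replicate numbers. Counts of at least 2-fold lower miRNAs (11) rose to 45 with 75th percentile scaling over all mouse miRNAs, to 26 in the deposited values and to 18 when 1 spot well above background counted as detection. The 27 missed miRNAs at least 2-fold above the normalized limit became 11 when arrays were scaled to the 75th percentile of the miRNAs present on all 4, 6 with no normalization, 125 with that 1-spot detection, and 2 on total signals with the limit at the signal plus its error, a rule added after the data were seen. limma calls (160 lower, 64 higher) became 93 and 20 with the methods' analysis of variance, 95 and 114 with all mouse miRNAs tested, and 20 and 29 with only miRNAs detected on all 3 arrays. Under 2 more rules added after the data were seen, 2 higher miRNAs were left without flagged spots, and 0 lower and 0 higher with a median spot above the brightest negative control. Without either Flut+Acy array the lower count stayed at 11, the higher count was 19 to 21 and the count above the limit 26 to 28. Of 102 miRNAs followed singly, 2 reversed, miR-10a (-0.99, deposited values) and miR-204 (-0.068, 75th percentile scaling over all mouse miRNAs). The causes were not tested. With 75th percentile scaling over all mouse miRNAs the median of the 83 miRNAs moved by -1.25, and with no normalization by 0.38. Weak signals on Flut+Acy+T limit what can be bounded.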

Other observations

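The percent of U, A or G tracked signal on Flut+Acy+T more than on the other arrays, while that of C tracked it less than on Flut+Acy. Over the 401 miRNAs with a RefSeq sequence, which share an array and its hybridization, the Spearman correlation between the percent of U and total signal was 0.33 on Flut+Acy+T, against 0.02 and 0.07 for Flut+Acy and 0.06 for Sham. For A it was -0.23 on Flut+Acy+T and 0.06 and 0.04 on Flut+Acy. For G it was -0.14 on Flut+Acy+T and 0.04 and 0.02 on Flut+Acy. For C it was 0.08 on Flut+Acy+T and -0.15 and -0.16 on Flut+Acy. The higher miRNAs with a sequence (10 of 18) had a median of 37.7% U and 15.5% A, the lower ones (8 of 11) 30.4% U and 28.9% A.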
